A study of Mus musculus with 9 samples.

Results

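The genes described are 39 targets that the hypoxia-inducible factor (HIF) is known to induce when oxygen is low, and that act outside glycolysis. They were chosen by name from a list of HIF-induced genes without the glycolytic enzymes, *Ero1l*, *Vegfa* and the regulators of HIF. Of the 14108 genes listed in the count tables, all 39 members were found, and all 39 were among the 14086 genes that passed edgeR's filter on low counts. The rule uses names and functions and no measured value, but it was set with earlier results of these data known.

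RNA-seq was performed on 9 primary mouse tumours, 3 each of the models HR1, LM1 and LM9. HR1 (LB-mHR1) does not metastasise and was established from a mammary tumour that arose in mice with a CAG-driven mutant *PIK3CA* transgene. LM1 and LM9 are cell lines grown out of lung metastases of HR1 cells mutagenised with the *piggyBac* transposon, so that all 3 models share the transgene and only the LM models carry transposon insertions. For each tumour, 250000 cells in Matrigel and PBS were placed in the mammary fat pad of a female NOD/SCID mouse (strain labelled NOD.CB17-Prkcd<scid>/J, as spelled in the labels) aged 4 to 8 weeks, the tumour was taken before 1500 mm3, and GFP+ cells were sorted. The study classes HR1 as an *Nfib* low-expression model and LM1 and LM9 as *Nfib* high-expression models. The cells that gave rise to LM1 and LM9 had received a *piggyBac* transposase vector and the transposon and were exposed to doxycycline in culture to mobilise it, which is not described for HR1, so that this history and the model cannot be told apart. The labels name no treatment of the tumours. Each model is a single cell line, and NOD/SCID hosts lack mature B and T cells but keep myeloid cells, vessels and fibroblasts. The labels do not say that the replicates of a model came from separate cultures, so the p-values measure only the spread between these tumours, which may be technical.

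Between 32393958 and 46681945 reads were counted on genes per tumour. Levels are given as CPM, a gene's share of the counted reads on a fixed common scale, adjusted by the TMM method of edgeR for library composition, and differences as log2 fold changes ± standard error. *Nfib*, the gene that defines the models, was at 1343, 23.9 and 18.3 CPM in HR1, 786, 791.3 and 579.3 CPM in LM1 and 532.1, 583.3 and 420.6 CPM in LM9. The tumour labelled HR1 replicate 1 thus went against its class, and the calls that change without it are given. Most epithelial markers were scarce: *Epcam* reached at most 4.49 CPM and *Cdh1* at most 1.2 CPM, and 4 of 10 epithelial markers were not listed. The basal keratin *Krt14* was higher, at 1.56, 31.4 and 108.9 CPM in HR1, 175, 152 and 174.8 CPM in LM1 and 12.2, 15.4 and 14 CPM in LM9, and the 6 listed epithelial markers summed to 7.55 to 121.4, 157.5 to 181.1 and 14.4 to 18 CPM. *Col1a1*, a collagen gene of fibroblasts and mesenchymal cells, lay between 6359 and 12670 CPM in the 9 tumours. The sorted tumours are therefore named here by their model only.

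HIF is a transcription factor of an oxygen-labile alpha subunit and a stable beta subunit. When oxygen is present, prolyl hydroxylases mark the alpha subunit for binding by the von Hippel-Lindau protein and degradation, and when oxygen is low it accumulates, enters the nucleus and binds short hypoxia response elements near its targets. Outside glycolysis these targets modify collagen, remove mitochondria, restrain mTOR, regulate pH, demethylate histones, store glycogen and signal to vessels, and solid tumours often express them around poorly perfused regions.

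Most of these genes were highest in LM9. Against HR1, 20 of the 39 members (51.3%) were higher in LM9 and 2 were lower, where 20.4% of all tested genes were higher and 21.9% lower (adjusted p under 0.05, quasi-likelihood test of edgeR, p-values adjusted by Benjamini and Hochberg's method over 14086 genes). The median log2 fold change of the members was 0.91, against -0.049 over all tested genes. Against LM1, 24 members (61.5%) were higher in LM9 and 0 were lower, where 11.5% of all tested genes were higher and 10.6% lower. At an unadjusted p under 0.05 edgeR also called 0 members lower in LM9 than in LM1, and so did DESeq2 and limma-voom after adjustment. With the LM9 and LM1 tumours fitted alone, however, *Lox*, *Loxl2* and *Stc2* were lower in LM9, by -0.91 ± 0.29, -0.99 ± 0.34 and -1.18 ± 0.11 (edgeR adjusted p = 0.0198, 0.0286 and 4.63e-06), and *Stc2* also without HR1 replicate 1. The fit of these tumours alone also called 28 members higher in LM9, and 7709 genes in either direction. Over all 9 tumours, the median log2 fold change of the members in LM9 against LM1 was 0.87.

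In LM1 against HR1, 8 members (20.5%) were higher and 9 (23.1%) were lower, where 16.7% and 18.7% of all tested genes were called, and the median was -0.029, against -0.039 over all tested genes. The balance depended on the HR1 tumours. Without HR1 replicate 1, 13 members were higher and 17 lower in LM1, against 26.9% and 26.0% of all tested genes, with a median of -0.22, and without HR1 replicate 3 the median was 0.23. The number lower was smallest, at 2, without LM1 replicate 1. The comparisons with HR1 share their control tumours. With the mean of LM1 and LM9 against HR1, 16 members were higher and 5 were lower, where the shares of all tested genes were 19.9% and 23.6%, and the median was 0.32.

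**Figure D1:**
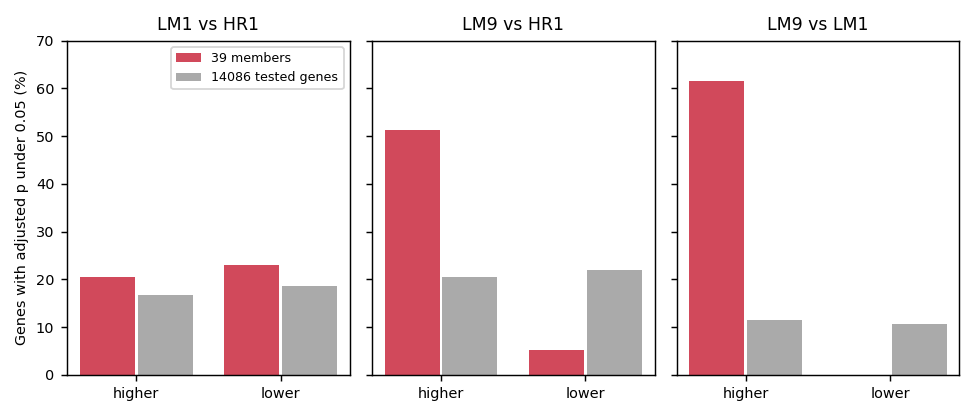
Percent of genes with an adjusted p under 0.05 (edgeR) in each direction, for the 39 members (red bars) and all 14086 tested genes (grey bars), in LM1 and LM9 against HR1 and in LM9 against LM1. In LM9 against LM1 the members reach 61.5% higher and 0 lower, against 11.5% and 10.6% of all tested genes.

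Counted without any test, the 3 LM9 tumours were all above the 3 HR1 tumours in 24 members and all below them in 3, where 28.0% and 25.3% of all tested genes were so separated. They were all above the LM1 tumours in 29 members and all below in 3, against 31.9% and 31.1% of all tested genes. Between LM1 and HR1, 12 members were separated in each direction, against 23.9% and 21.7% of all tested genes. The median of log2(CPM + 0.5) over the members lay between 5.49 and 5.84 in the HR1 tumours, between 5.56 and 5.75 in LM1 and between 6.76 and 7.10 in LM9.

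**Figure D2:**
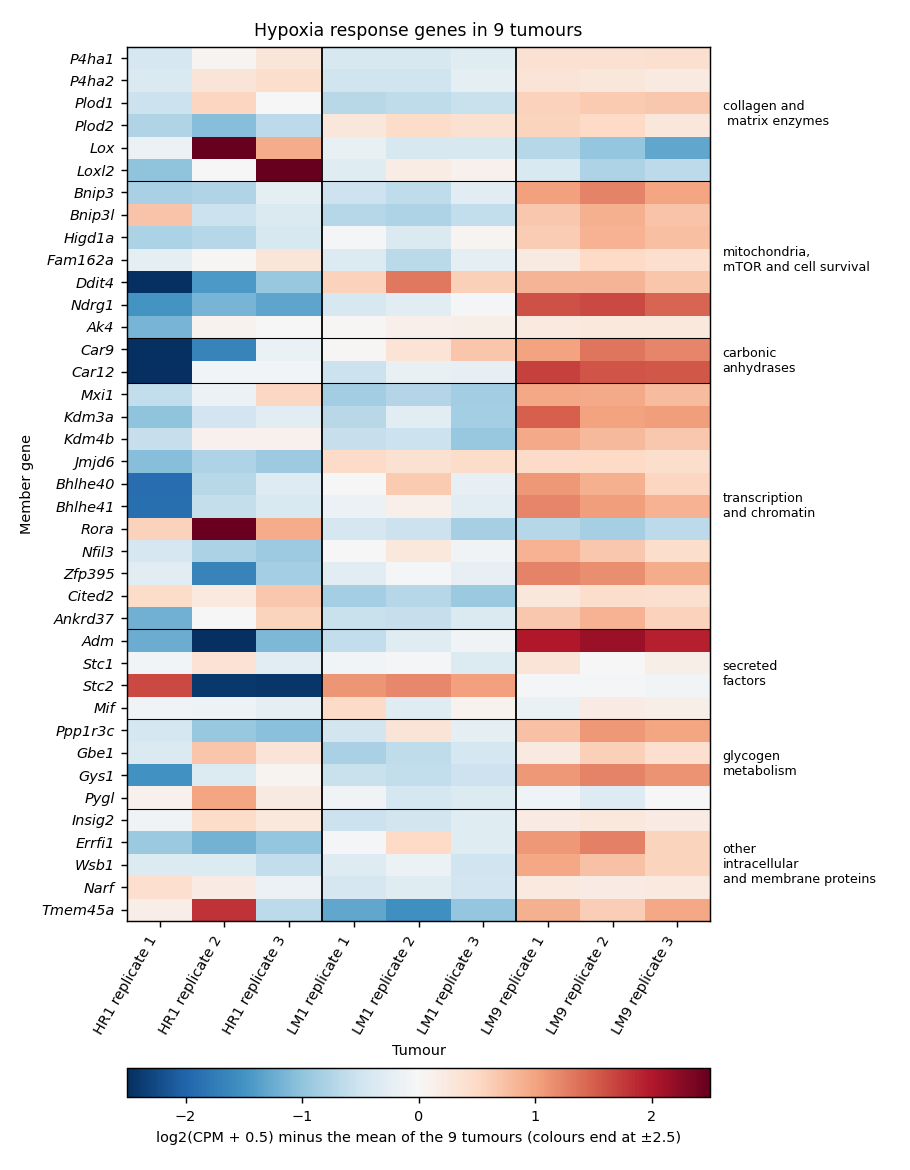
Level of each of the 39 members in each of the 9 tumours, as log2(CPM + 0.5) minus the mean of the 9 tumours. Rows are members grouped by role, columns are tumours, red is above and blue below the gene's mean. The LM9 columns are red in most rows, and HR1 replicate 1 is below both other HR1 tumours in 25 of 39 rows.

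The calls fell into 9 patterns over the 3 comparisons. *Higd1a*, *Ndrg1*, *Nfil3*, *Adm* and *Errfi1* were higher in LM1 than in HR1 and higher again in LM9. *Bnip3*, *Kdm3a*, *Kdm4b*, *Bhlhe41*, *Zfp395*, *Gys1* and *Wsb1* were higher in LM9 than in both other models. *Plod2*, *Ddit4* and *Jmjd6* were higher in both LM models than in HR1 and were not called between them. *Plod1*, *Cited2*, *Gbe1*, *Insig2*, *Narf* and *Tmem45a* were lower in LM1 than in both other models. *Mxi1* was lower in LM1 and higher in LM9 than in HR1. *Car9*, *Car12*, *Bhlhe40* and *Ppp1r3c* were called in LM9 against HR1 alone, and *P4ha1*, *P4ha2*, *Bnip3l*, *Fam162a* and *Ankrd37* in LM9 against LM1 alone. *Lox* and *Rora* were lower in both LM models. *Loxl2*, *Ak4*, *Stc1*, *Stc2*, *Mif* and *Pygl* were not called in any of the 3 comparisons. Several of these patterns changed without HR1 replicate 1, where all 63 calls were kept and others were gained, as given with the genes and in the paragraph on the HR1 tumours.

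These calls were not equally stable when a tumour was left out. Of the 20 members higher in LM9 than in HR1, 18 were called in all 9 fits that left out 1 tumour, as were both lower members. Of the 24 higher in LM9 than in LM1, 11 were called in all 9 fits: *Plod1*, *Bnip3*, *Higd1a*, *Ndrg1*, *Mxi1*, *Kdm3a*, *Kdm4b*, *Cited2*, *Adm*, *Gys1* and *Wsb1*. The count was lowest, at 11, without LM1 replicate 1, where 1150 genes were called in all. These fits share 1 estimate of the spread over the models, so the HR1 tumours enter it. Without HR1 replicate 1 all 24 were called, *P4ha2* for example with an edgeR adjusted p of 0.000905 instead of 0.0402. All 24 were also called with the LM9 and LM1 tumours fitted alone. In LM1 against HR1, 6 of the 8 higher members were called in all 9 fits, but only *Cited2* of the 9 lower ones.

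**Figure D3:**
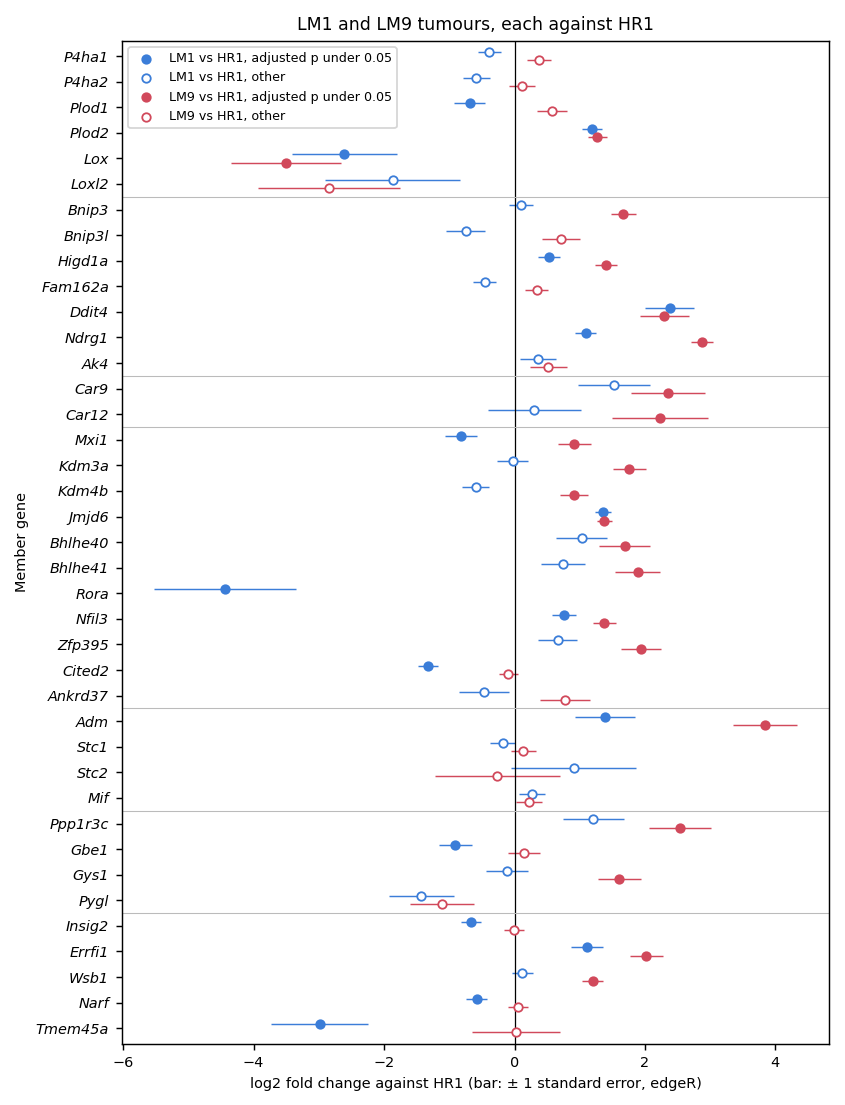
Log2 fold change of each member in LM1 (blue) and LM9 (red), each against HR1, with bars of ± 1 standard error. Filled points have an adjusted p under 0.05 (edgeR), and *Rora* in LM9, with 5 reads over the 3 tumours, is not drawn. *Ndrg1* and *Adm* lie far apart between the models, while *Plod2*, *Ddit4* and *Jmjd6* each lie at close values in both.

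HIF recognises a core of the letters ACGTG or GCGTG. RefSeq promoters (GRCm38.p6, 250 bases before to 50 after each start) were matched by symbol for 30 members, with 41 start sites, and searched on both strands, so that the 6 letters CACGTG count as 2 overlapping matches to the first core. ACGTG was found in 20 of the 41 windows (48.8%), against 19.6% of all 32851 promoters and 24.8% of the 14088 promoters of tested genes. GCGTG was found in 63.4%, 32.4% and 48.9% of the same windows, and either core in 75.6%, 43.8% and 60.3%. A match describes these letters and is not a bound site. No promoter of *Plod2*, *Lox*, *Loxl2*, *Bnip3l*, *Ndrg1*, *Kdm4b*, *Bhlhe40*, *Zfp395* or *Stc1* was matched. The 250 bases upstream are shown for 6 members that stand for 3 of the 9 patterns, chosen after their values were seen: *Bnip3*, *Wsb1* and *Kdm3a*, higher in LM9 than in both other models, *Ddit4* and *Jmjd6*, higher in both LM models, and *Cited2*, lower in LM1. Capitals mark the cores on either strand, and the sequences run 5′ to 3′ toward the start site.
Bnip3, chr7:138909507-138909756, strand -: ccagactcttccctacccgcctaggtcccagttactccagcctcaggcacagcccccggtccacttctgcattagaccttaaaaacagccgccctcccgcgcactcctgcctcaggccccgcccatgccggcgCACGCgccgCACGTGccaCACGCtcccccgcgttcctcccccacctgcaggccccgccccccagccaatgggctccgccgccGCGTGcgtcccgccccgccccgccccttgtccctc
Wsb1, chr11:79254696-79254945, strand -: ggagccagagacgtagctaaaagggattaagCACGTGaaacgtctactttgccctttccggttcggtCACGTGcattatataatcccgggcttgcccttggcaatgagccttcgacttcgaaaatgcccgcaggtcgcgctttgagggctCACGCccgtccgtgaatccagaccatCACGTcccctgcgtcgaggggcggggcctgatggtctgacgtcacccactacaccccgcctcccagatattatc
Kdm3a, chr6:71632918-71633167, strand -: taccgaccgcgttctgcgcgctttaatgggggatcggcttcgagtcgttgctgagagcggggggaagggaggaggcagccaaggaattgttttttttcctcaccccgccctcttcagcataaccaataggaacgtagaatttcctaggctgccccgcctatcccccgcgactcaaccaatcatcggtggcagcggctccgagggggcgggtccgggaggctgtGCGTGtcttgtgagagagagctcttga
Ddit4, chr10:59951771-59952020, strand -: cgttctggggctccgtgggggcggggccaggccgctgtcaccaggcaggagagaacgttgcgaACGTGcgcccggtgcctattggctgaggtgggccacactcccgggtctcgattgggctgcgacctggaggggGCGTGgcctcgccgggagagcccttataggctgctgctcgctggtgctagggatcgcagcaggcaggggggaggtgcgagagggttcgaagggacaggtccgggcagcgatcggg
Jmjd6, chr11:116843450-116843699, strand -: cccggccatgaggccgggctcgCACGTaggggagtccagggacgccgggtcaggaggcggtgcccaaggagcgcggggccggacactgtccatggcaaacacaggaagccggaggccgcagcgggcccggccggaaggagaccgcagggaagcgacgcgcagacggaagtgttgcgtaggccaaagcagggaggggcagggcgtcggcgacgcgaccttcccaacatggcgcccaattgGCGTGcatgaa
Cited2, chr10:17722978-17723227, strand +: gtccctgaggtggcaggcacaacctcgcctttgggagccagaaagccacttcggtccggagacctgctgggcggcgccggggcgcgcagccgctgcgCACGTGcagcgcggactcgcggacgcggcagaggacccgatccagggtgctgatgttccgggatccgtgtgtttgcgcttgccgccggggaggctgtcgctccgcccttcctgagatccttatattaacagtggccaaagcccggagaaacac
The *Wsb1* stretch held 5 matches to ACGTG and 1 to GCGTG, and that of *Bnip3* held 2 and 3. *Kdm3a*, with a similar pattern of levels, held a single GCGTG. *Ddit4* and *Jmjd6* held 1 match to each core, and *Cited2* held 2 overlapping matches to ACGTG.

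Of the 6 enzymes that modify and cross-link collagen, 1 rose, 1 fell and 4 were not called in LM9 against HR1, a share in each direction near the 20.4% and 21.9% of all tested genes. Against LM1, 3 of them were higher and 0 lower in LM9, where 11.5% and 10.6% of all tested genes were called. In LM1 against HR1 1 was higher and 2 were lower, where 16.7% and 18.7% of all tested genes were called, or 1 and 5 without HR1 replicate 1, against 26.9% and 26.0%. *Plod2*, a lysyl hydroxylase that prepares collagen for cross-links, was at 72.3, 57.7 and 77.4 CPM in HR1, 148, 166 and 158 CPM in LM1 and 179.6, 172 and 148 CPM in LM9. Both LM models lay above all HR1 tumours and overlapped each other. The log2 fold changes against HR1 were 1.19 ± 0.15 (edgeR adjusted p = 0.000709) in LM1 and 1.27 ± 0.15 (edgeR adjusted p = 0.000466) in LM9. *Plod1*, the related lysyl hydroxylase, was at 322, 673 and 462 CPM in HR1, 287, 299 and 317 CPM in LM1 and 690.1, 733 and 743 CPM in LM9. LM1 was the lowest model, 2.40-fold below LM9, with a log2 fold change of LM9 against LM1 of 1.26 ± 0.24 (edgeR adjusted p = 0.00831). The lower level of *Plod1* in LM1 than in HR1, -0.69 ± 0.24 (edgeR adjusted p = 0.0487), was lost without HR1 replicate 2 or 3 or any single LM tumour, with an adjusted p of up to 0.139. In LM9 against HR1 *Plod1* passed without HR1 replicate 2 (0.88 ± 0.18, edgeR adjusted p = 0.0074).

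*P4ha1* and *P4ha2* encode catalytic subunits of the collagen prolyl hydroxylase. *P4ha1* was at 435, 609 and 718 CPM in HR1, 439.9, 438 and 469.5 CPM in LM1 and 758, 756 and 770.3 CPM in LM9. *P4ha2* was at 157, 255 and 276 CPM in HR1, 145, 144 and 171 CPM in LM1 and 256, 249.1 and 238 CPM in LM9. Both were lower in LM1 than in every LM9 tumour, by 0.76 ± 0.18 and 0.70 ± 0.20 on the log2 scale of LM9 against LM1 (edgeR adjusted p = 0.0193 and 0.0402). Either call was lost without any single LM1 or LM9 tumour, with an adjusted p of up to 0.0795 and 0.136. Against HR1 neither was called in LM9, where the difference of *P4ha2* was 0.11 ± 0.20, although *P4ha1* passed without HR1 replicate 3 (0.55 ± 0.17, edgeR adjusted p = 0.0331). Both were lower in LM1 than in HR1 once HR1 replicate 1 was left out, by -0.56 ± 0.12 (edgeR adjusted p = 0.00286) and -0.79 ± 0.12 (edgeR adjusted p = 0.000487).

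*Lox*, which oxidises lysines of collagen and elastin, fell below HR1 in both LM models. It was at 2.13, 26.2 and 5.07 CPM in HR1, 2.06, 1.70 and 1.70 CPM in LM1 and 1.27, 0.984 and 0.675 CPM in LM9. HR1 replicate 2 stood far above the rest, and the LM9 tumours lay below all others. The log2 fold change was -3.51 ± 0.84 (edgeR adjusted p = 0.011) in LM9 and -2.61 ± 0.81 (edgeR adjusted p = 0.034) in LM1. Without HR1 replicate 2 these values shrank to -1.88 ± 0.45 (edgeR adjusted p = 0.014) and -0.98 ± 0.44 (edgeR adjusted p = 0.122), and the LM1 call was also lost without any single LM tumour. *Loxl2*, a second lysyl oxidase, was at 0.299, 1.10 and 10.8 CPM in HR1, 0.798, 1.31 and 1.22 CPM in LM1 and 0.730, 0.435 and 0.518 CPM in LM9 and was called in none of the 3 comparisons between models. With LM1 and LM9 together it was lower than in HR1, by -2.36 ± 0.84 (edgeR adjusted p = 0.049), a call lost without any single LM tumour and turned to 0.15 (edgeR adjusted p = 0.84) without HR1 replicate 3. Without HR1 replicate 1 it was lower in LM9 by -3.39 ± 0.76 (edgeR adjusted p = 0.00465) and in LM1 by -2.41 ± 0.73 (edgeR adjusted p = 0.0204) than in HR1, and without HR1 replicate 2 it was lower in LM9 (edgeR adjusted p = 0.0431). Its HR1 tumours alone spanned the range of all others, and 45.0% of its 50-base windows occur in other genes, so its counts are uncertain.

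Of the 7 genes of mitochondria, mTOR and survival, 4 were higher in LM9 than in HR1, where 20.4% of all tested genes were, and 5 were higher than in LM1, where 11.5% were. None was lower in either comparison, and the median log2 fold change was 1.40 against HR1. *Ndrg1*, a stress-responsive cytoplasmic protein, was at 1170, 1487 and 1335 CPM in HR1, 2525, 2735 and 3233 CPM in LM1 and 9946, 10400 and 9093 CPM in LM9. The 3 models did not overlap at any step. The log2 fold change was 1.09 ± 0.16 (edgeR adjusted p = 0.00137) in LM1 and 2.88 ± 0.17 (edgeR adjusted p = 1.9e-05) in LM9 against HR1, and 1.79 ± 0.16 (edgeR adjusted p = 0.000491) between LM9 and LM1. In LM9 *Ndrg1* alone took 0.993%, 1.01% and 0.905% of all counted reads, ranking 1, 2 and 3 among all genes, against ranks 23, 18 and 13 in LM1 and 80, 49 and 56 in HR1.

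*Bnip3* and *Bnip3l* encode receptors on the outer mitochondrial membrane that mark mitochondria for autophagy. *Bnip3* was at 36.9, 38.1 and 55.1 CPM in HR1, 45.0, 41.3 and 52.8 CPM in LM1 and 131, 153 and 128 CPM in LM9. HR1 and LM1 overlapped, and every LM9 tumour was more than 2-fold above every tumour of both. The log2 fold change was 1.67 ± 0.19 (edgeR adjusted p = 0.000401) against HR1 and 1.57 ± 0.19 (edgeR adjusted p = 0.00146) against LM1, while LM1 differed from HR1 by 0.097 ± 0.18. *Bnip3l* was at 178, 74.6 and 85.2 CPM in HR1, 66.3, 63.9 and 70.8 CPM in LM1 and 175, 202 and 179 CPM in LM9. HR1 replicate 1 stood apart at the level of LM9. With it the difference of LM9 from HR1 was 0.72 ± 0.29 (edgeR adjusted p = 0.0779) and without it 1.22 ± 0.12 (edgeR adjusted p = 4.62e-05), and the call against LM1, 1.47 ± 0.30 (edgeR adjusted p = 0.0112), was lost without LM1 replicate 1 (0.0529). Both genes share sequence with pseudogenes, in 16.5% and 20.8% of their 50-base windows.

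*Higd1a*, a protein of the inner mitochondrial membrane, was at 19.6, 20.7 and 25.9 CPM in HR1, 32.9, 26.4 and 35.9 CPM in LM1 and 53.4, 62.9 and 58.0 CPM in LM9. The models rose in steps without overlap, by 0.52 ± 0.17 in LM1 and 1.40 ± 0.17 (edgeR adjusted p = 0.000553) in LM9 against HR1. The step to LM1 (edgeR adjusted p = 0.0383) was lost without HR1 replicate 2, LM1 replicate 1 or 3, or any LM9 tumour, with an adjusted p of up to 0.119. *Fam162a*, a mitochondrial protein linked to cell death in hypoxia, was at 218, 259 and 313 CPM in HR1, 201, 159 and 216 CPM in LM1 and 296, 359.5 and 342 CPM in LM9. LM1 was lowest and LM9 overlapped HR1. The difference of LM1 from HR1 was called when HR1 replicate 1 was left out, at -0.57 ± 0.16 (edgeR adjusted p = 0.013). LM9 exceeded LM1 by 0.80 ± 0.18 (edgeR adjusted p = 0.0166), a call lost without LM1 replicate 1 or 2 or LM9 replicate 2 or 3, with an adjusted p of up to 0.0679. *Ak4*, an adenylate kinase of the mitochondrial matrix, was not called, and lay at 20.1 CPM in HR1 replicate 1 and between 45.3 and 54.9 CPM in the other 8 tumours.

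*Ddit4*, which encodes the mTOR inhibitor REDD1, was as high in LM1 as in LM9. It was at 41.4, 86.7 and 123 CPM in HR1, 355, 594 and 356 CPM in LM1 and 427, 426 and 380.3 CPM in LM9. Every LM tumour lay above every HR1 tumour, and LM1 and LM9 overlapped. The log2 fold change was 2.38 ± 0.38 (edgeR adjusted p = 0.00208) in LM1 and 2.30 ± 0.38 (edgeR adjusted p = 0.00207) in LM9, and the models differed from each other by -0.082 ± 0.36. Without HR1 replicate 1, which was lowest, the values were 2.06 ± 0.26 (edgeR adjusted p = 0.000177) and 1.98 ± 0.26 (edgeR adjusted p = 0.000207).

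*Car9* and *Car12* are carbonic anhydrases of the cell surface that regulate pH. *Car9* was at 44.5, 96.6 and 276 CPM in HR1, 315, 392 and 498 CPM in LM1 and 624, 783 and 726 CPM in LM9. The order of the models had no overlap, but HR1 spread over several-fold. Only LM9 against HR1 was called, at 2.35 ± 0.57 (edgeR adjusted p = 0.0113), and this rose to 3.33 ± 0.38 without HR1 replicate 3. LM1 against HR1, 1.53 ± 0.55 (edgeR adjusted p = 0.0589), passed without HR1 replicate 1 (1.12 ± 0.39) or 3 (2.51 ± 0.36). *Car12* was at 4.85, 69.4 and 69.8 CPM in HR1, 50.3, 64.7 and 63.2 CPM in LM1 and 242, 219.9 and 216 CPM in LM9. HR1 replicate 1 was far below the other HR1 tumours, which lay just above LM1, and LM9 stood above all. The difference of LM9 from HR1 was 2.23 ± 0.74 (edgeR adjusted p = 0.0384), lost without HR1 replicate 2 or any single LM tumour (0.0893 at most), but 1.70 ± 0.14 (edgeR adjusted p = 1.38e-05) without HR1 replicate 1. Of the fits that left out 1 tumour, LM9 against LM1, 1.93 ± 0.73 (edgeR adjusted p = 0.0899), passed only without HR1 replicate 1, at 1.92 ± 0.12 (edgeR adjusted p = 9.21e-06).

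Among the 11 genes of transcription and chromatin, 8 were higher and 1, *Rora*, lower in LM9 than in HR1, where 20.4% and 21.9% of all tested genes were called. In LM9 against LM1 8 were higher and 0 lower, against 11.5% and 10.6% of all tested genes, and in LM1 against HR1 2 were higher and 3 lower, against 16.7% and 18.7%. *Kdm3a* and *Kdm4b* encode demethylases of histone H3 lysine 9. *Kdm3a* was at 24.9, 36.5 and 42.3 CPM in HR1, 31.3, 42.4 and 28.0 CPM in LM1 and 144, 103 and 105 CPM in LM9. HR1 and LM1 overlapped throughout, with a difference of -0.029 ± 0.24, and LM9 stood above both. The log2 fold change of LM9 was 1.76 ± 0.25 (edgeR adjusted p = 0.00102) against HR1 and 1.79 ± 0.25 (edgeR adjusted p = 0.00267) against LM1. *Kdm4b* was at 31.4, 50.2 and 50.2 CPM in HR1, 31.1, 32.2 and 24.0 CPM in LM1 and 91.3, 82.7 and 74.5 CPM in LM9. LM9 was again above both other models, by 0.91 ± 0.21 against HR1 and 1.51 ± 0.21 (edgeR adjusted p = 0.00274) against LM1. *Kdm4b* was also lower in LM1 than in HR1 without HR1 replicate 1, by -0.78 ± 0.15 (edgeR adjusted p = 0.00198).

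*Jmjd6*, a dioxygenase that hydroxylates lysines of splicing proteins, was at 71.8, 88.0 and 79.8 CPM in HR1, 211, 196 and 208 CPM in LM1 and 209, 212 and 203 CPM in LM9. All LM tumours were above all HR1 tumours, with LM1 and LM9 at the same level. The log2 fold change was 1.36 ± 0.12 (edgeR adjusted p = 0.000175) in LM1 and 1.38 ± 0.12 (edgeR adjusted p = 0.00011) in LM9, and LM9 differed from LM1 by 0.022 ± 0.12.

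*Mxi1*, a partner of MAX that opposes MYC, was at 45.4, 62.5 and 99.8 CPM in HR1, 38.1, 41.6 and 37.9 CPM in LM1 and 136, 135 and 121 CPM in LM9. Its models had no overlap, with LM1 lowest and LM9 highest. LM9 exceeded LM1 by 1.74 ± 0.26 (edgeR adjusted p = 0.00323). The differences from HR1 were smaller, at 0.92 ± 0.25 (edgeR adjusted p = 0.0183) in LM9 and -0.82 ± 0.25 (edgeR adjusted p = 0.0321) in LM1. The first was lost without HR1 replicate 2 or LM9 replicate 1 or 2 and the second without HR1 replicate 3 or any single LM tumour, with an adjusted p of up to 0.0599 and 0.0984.

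*Cited2*, which competes with HIF for the coactivators CBP and p300 and so damps the response, was the member most clearly lower in LM1. It was at 44.3, 37.7 and 51.2 CPM in HR1, 17.4, 19.2 and 16.5 CPM in LM1 and 38.98, 43.5 and 42.2 CPM in LM9. All LM1 tumours lay below all others, and LM9 overlapped HR1. LM1 differed from HR1 by -1.33 ± 0.15 (edgeR adjusted p = 0.000446) and LM9 from LM1 by 1.23 ± 0.15 (edgeR adjusted p = 0.00152), and LM9 from HR1 by -0.095 ± 0.15.

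*Bhlhe40* and *Bhlhe41* encode repressors of the circadian clock. *Bhlhe40* was at 116, 269.7 and 348 CPM in HR1, 434, 685 and 379.6 CPM in LM1 and 923, 811 and 639.5 CPM in LM9. LM9 overlapped LM1 and was above HR1 by 1.69 ± 0.39 (edgeR adjusted p = 0.00952). In the fit without HR1 replicate 1 LM9 also exceeded LM1, by 0.66 ± 0.23 (edgeR adjusted p = 0.0413), and LM1 exceeded HR1, by 0.70 ± 0.26 (edgeR adjusted p = 0.0471), the latter also without HR1 replicate 3 (0.0314). *Bhlhe41* was at 9.78, 24.3 and 28.6 CPM in HR1, 33.8, 40.7 and 30.9 CPM in LM1 and 87.4, 77.7 and 68.0 CPM in LM9. LM9 stood above both other models, by 1.89 ± 0.35 (edgeR adjusted p = 0.0033) against HR1 and 1.14 ± 0.34 (edgeR adjusted p = 0.0422) against LM1, the latter lost without any single LM tumour (0.141 at most). HR1 replicate 1 was the lowest tumour for both genes. *Rora*, a nuclear receptor of the clock, went the other way, with 25, 196 and 46 reads in HR1, 8, 5 and 0 in LM1 and 2, 0 and 3 in LM9. All LM tumours were below all HR1 tumours, and HR1 replicate 2 held most of the HR1 reads. Pooled over tumours, HR1 was 63.5-fold above LM9, with an exact 95% interval of 26.9 to 197 that covers counting error only. Without HR1 replicate 2 it was 27.7-fold above, with an interval of 11.3 to 88.1. The edgeR adjusted p was 0.0059 in LM9, or 0.0121 without HR1 replicate 2, and 0.0134 in LM1. In LM1 the log2 fold change of -4.44 ± 1.09 became -3.35 ± 0.96 without HR1 replicate 2 and -5.13 ± 1.43 without LM1 replicate 1, and the call was lost without LM1 replicate 2 (0.0549).

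*Nfil3*, a leucine zipper repressor, was at 59.0, 45.5 and 42.0 CPM in HR1, 78.8, 95.0 and 74.5 CPM in LM1 and 145, 126 and 108 CPM in LM9. It rose in steps without overlap, by 0.76 ± 0.18 (edgeR adjusted p = 0.0116) in LM1 and 1.38 ± 0.18 (edgeR adjusted p = 0.000788) in LM9 against HR1. The step from LM1 to LM9, 0.61 ± 0.18 (edgeR adjusted p = 0.0399), was lost without LM1 replicate 1 or 3 or any LM9 tumour. *Zfp395*, a zinc finger protein, was at 67.8, 25.8 and 46.0 CPM in HR1, 68.8, 79.8 and 72.0 CPM in LM1 and 195, 185 and 157 CPM in LM9. The models did not overlap, and LM9 was above HR1 by 1.94 ± 0.30 (edgeR adjusted p = 0.0016) and above LM1 by 1.28 ± 0.30 (edgeR adjusted p = 0.0178), the latter lost without LM1 replicate 1 or 3 or LM9 replicate 1 or 2. *Zfp395* was also higher in LM1 than in HR1 without HR1 replicate 1, by 1.04 ± 0.22 (edgeR adjusted p = 0.00344). *Ankrd37*, an ankyrin repeat protein, was at 5.25, 12.7 and 19.0 CPM in HR1, 8.53, 8.38 and 9.86 CPM in LM1 and 20.5, 23.7 and 19.3 CPM in LM9. LM9 was highest, but only its difference from LM1 was called, at 1.25 ± 0.39 (edgeR adjusted p = 0.0486), and this was lost without HR1 replicate 2 or any single LM tumour. Against HR1, *Ankrd37* was lower in LM1 without HR1 replicate 1, by -0.82 ± 0.20 (edgeR adjusted p = 0.00617), and higher in LM9 without HR1 replicate 3, by 1.23 ± 0.35 (edgeR adjusted p = 0.0225). The adjusted p reached 0.15, 0.0761 and 0.144 for the 3 genes in these fits.

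Of the 4 secreted factors only *Adm*, the vasodilator adrenomedullin, was called over all 9 tumours. So 1 of 4 was higher in LM9 than in HR1, in LM1 than in HR1 and in LM9 than in LM1. Of all tested genes 20.4%, 16.7% and 11.5% were higher in the same order. *Adm* was at 3.03, 0.743 and 3.32 CPM in HR1, 4.96, 6.25 and 7.34 CPM in LM1 and 32.8, 36.9 and 31.7 CPM in LM9. The 3 models did not overlap, and LM9 was far above both. LM9 was 14.4-fold above HR1, a log2 fold change of 3.84 ± 0.50 (edgeR adjusted p = 0.00071), and exceeded LM1 by 2.45 ± 0.46 (edgeR adjusted p = 0.00845). LM1 exceeded HR1 by 1.39 ± 0.46 (edgeR adjusted p = 0.0422), a call lost without any single LM tumour (0.115 at most). *Stc2*, a stanniocalcin, a glycoprotein hormone, was at 82.8, 4.48 and 4.43 CPM in HR1, 57.1, 60.8 and 53.7 CPM in LM1 and 25.4, 25.8 and 25.1 CPM in LM9. The tumour labelled HR1 replicate 1 was above all other tumours and the remaining HR1 tumours below them. The difference from HR1 was -0.26 ± 0.96 (edgeR adjusted p = 0.844) in LM9 and 0.91 ± 0.96 (edgeR adjusted p = 0.492) in LM1 with it, and 2.52 ± 0.13 (edgeR adjusted p = 8.87e-07) and 3.69 ± 0.14 (edgeR adjusted p = 2.59e-07) without it. LM9 was below LM1 in all tumours, by -1.17 ± 0.97 (edgeR adjusted p = 0.41) with HR1 replicate 1 in the model and -1.18 ± 0.11 (edgeR adjusted p = 4.61e-05) without it.

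*Stc1*, the other stanniocalcin, lay between 22.5 and 36.7 CPM in the 9 tumours, and the cytokine gene *Mif* between 164.5 and 281 CPM. Neither was called. Of the 50-base windows of *Mif*, 34.1% occur in pseudogenes, so its counts are uncertain.

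**Figure D4:**
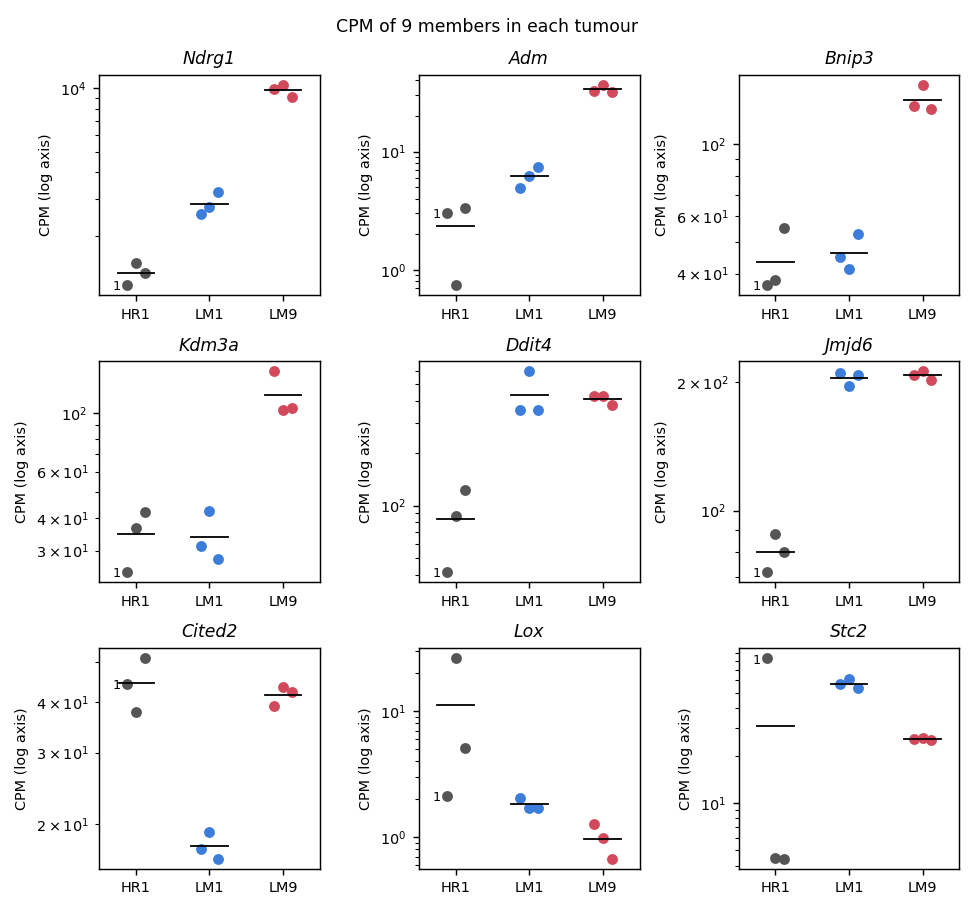
CPM of 9 members in each tumour on log axes, with 3 points for each model and a line at their mean; HR1 replicate 1 is marked 1. *Ndrg1* and *Adm* rise in steps, *Bnip3* and *Kdm3a* are high in LM9 alone, *Ddit4* and *Jmjd6* are high in both LM models, *Cited2* is low in LM1, *Lox* is low in both LM models, and *Stc2* in HR1 replicate 1 is at 82.8 CPM.

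Of the 4 genes of glycogen metabolism, *Gys1* and *Ppp1r3c* were higher in LM9 than in HR1, where 20.4% of all tested genes were, and *Gys1* and *Gbe1* were higher in LM9 than in LM1, where 11.5% were. *Gys1*, glycogen synthase, was at 29.5, 66.6 and 89.0 CPM in HR1, 57.5, 55.2 and 59.1 CPM in LM1 and 179.7, 199 and 185 CPM in LM9. LM9 was above all other tumours, by 1.61 ± 0.33 (edgeR adjusted p = 0.00545) against HR1 and 1.71 ± 0.33 (edgeR adjusted p = 0.00898) against LM1, and LM1 overlapped HR1, below which it was called without HR1 replicate 1, by -0.43 ± 0.14 (edgeR adjusted p = 0.0224). *Ppp1r3c*, which targets a phosphatase to glycogen, was scarce, at 0.732, 0.360 and 0.309 CPM in HR1, 0.714, 1.59 and 0.914 CPM in LM1 and 2.27, 3.04 and 2.79 CPM in LM9. LM9 was above all other tumours, but only the difference from HR1, 2.54 ± 0.48 (edgeR adjusted p = 0.00377), was called. That from LM1 (0.0649) passed without HR1 replicate 1 (0.0134) or 3 (0.0473), and LM1 exceeded HR1 by 1.68 ± 0.45 (edgeR adjusted p = 0.011) without HR1 replicate 1. *Gbe1*, the branching enzyme, was at 41.3, 86.2 and 66.8 CPM in HR1, 30.3, 34.2 and 39.1 CPM in LM1 and 62.6, 80.7 and 71.2 CPM in LM9. LM1 was below all other tumours, by -0.91 ± 0.25 (edgeR adjusted p = 0.022) against HR1, and LM9 exceeded it by 1.05 ± 0.25 (edgeR adjusted p = 0.02). The first call was lost without HR1 replicate 2 or LM1 replicate 1 or 2 and the second without any single LM tumour, with an adjusted p of up to 0.0851 and 0.0859. *Pygl*, a glycogen phosphorylase, lay between 0.272 and 1.58 CPM and was called in none of the 3 comparisons between models. With LM1 and LM9 together it was lower than in HR1, by -1.27 ± 0.41 (edgeR adjusted p = 0.0332), lost without HR1 replicate 2, LM1 replicate 2 or 3 or any LM9 tumour (0.172 at most). Its difference from HR1 was -1.43 ± 0.50 in LM1 and -1.11 ± 0.49 in LM9, and without HR1 replicate 1 -1.65 ± 0.49 (edgeR adjusted p = 0.0176) and -1.34 ± 0.48 (edgeR adjusted p = 0.0385). In LM1 it also passed without HR1 replicate 3 (0.0428).

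The remaining 5 members were all higher in LM9 than in LM1, where 11.5% of all tested genes were. Against HR1, 2 were higher and 0 lower in LM9, with a median of 0.059, and 1 was higher and 3 lower in LM1, where 20.4% and 21.9% of all tested genes were called in LM9 and 16.7% and 18.7% in LM1. *Errfi1*, a feedback inhibitor of the EGF receptor, was at 120.3, 100.3 and 116 CPM in HR1, 222, 322 and 184 CPM in LM1 and 483, 549 and 335 CPM in LM9. The models rose in steps without overlap, by 1.11 ± 0.25 (edgeR adjusted p = 0.00871) in LM1 and 2.02 ± 0.25 (edgeR adjusted p = 0.000601) in LM9 against HR1, and by 0.91 ± 0.24 (edgeR adjusted p = 0.0305) between them. The last call was lost without LM1 replicate 1 or 3 or LM9 replicate 1 or 2, with an adjusted p of up to 0.122. *Wsb1*, a substrate receptor of a ubiquitin ligase, was at 59.4, 58.8 and 48.8 CPM in HR1, 59.99, 68.2 and 53.4 CPM in LM1 and 148, 124 and 111 CPM in LM9. LM9 stood above both other models, which overlapped, by 1.20 ± 0.16 (edgeR adjusted p = 0.000815) against HR1 and 1.08 ± 0.16 (edgeR adjusted p = 0.00326) against LM1.

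*Insig2*, which holds back the activation of sterol regulatory proteins, was at 63.9, 94.1 and 81.9 CPM in HR1, 46.8, 49.3 and 54.8 CPM in LM1 and 78.7, 81.5 and 78.02 CPM in LM9. *Narf*, a nuclear protein that binds prelamin A, was at 65.3, 56.6 and 44.2 CPM in HR1, 36.1, 39.7 and 35.1 CPM in LM1 and 58.3, 56.6 and 58.2 CPM in LM9. *Tmem45a*, a transmembrane protein, was scarce, at 1.93, 7.05 and 0.875 CPM in HR1, 0.378, 0.249 and 0.610 CPM in LM1 and 3.50, 2.79 and 3.71 CPM in LM9. In all of these LM1 was below every HR1 and LM9 tumour, and LM9 overlapped HR1. LM1 differed from HR1 by -0.67 ± 0.16 (edgeR adjusted p = 0.0108) for *Insig2*, -0.58 ± 0.15 (edgeR adjusted p = 0.0188) for *Narf* and -2.99 ± 0.75 (edgeR adjusted p = 0.0148) for *Tmem45a*, which was -1.76 ± 0.49 without HR1 replicate 2. These calls were lost without LM1 replicate 1 for all of them, also without LM1 replicate 3 for *Narf* and without LM1 replicate 2 for *Tmem45a* (0.051, 0.0694 and 0.0616 at most). LM9 exceeded LM1 by 0.66 ± 0.16, 0.64 ± 0.15 and 3.01 ± 0.75 in the same order, calls lost without LM1 replicate 1 or any LM9 tumour, without LM1 replicate 2 for *Insig2* and *Tmem45a*, and without LM1 replicate 3 for *Narf* and *Tmem45a* (0.0846, 0.083 and 0.0909 at most).

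Related members are set side by side here, with no test between genes. In LM9 against HR1 the log2 fold change was 0.57 ± 0.23 for *Plod1* and 1.27 ± 0.15 for *Plod2*, 1.67 ± 0.19 for *Bnip3* and 0.72 ± 0.29 for *Bnip3l*. The values lay close for *Car9* and *Car12*, at 2.35 ± 0.57 and 2.23 ± 0.74, for *Bhlhe40* and *Bhlhe41*, at 1.69 ± 0.39 and 1.89 ± 0.35, and for *P4ha1* and *P4ha2*, at 0.38 ± 0.18 and 0.11 ± 0.20. Those of *Bnip3* and *Bnip3l* were nearer to each other without HR1 replicate 1, at 1.56 and 1.22. In LM1 against HR1 the values were -0.69 ± 0.24 and 1.19 ± 0.15 for the lysyl hydroxylases, with opposite signs. Per kilobase of exon, *Ndrg1* was the most abundant member in LM9, at a mean of 1490 CPM per kb, ahead of *Fam162a* at 391 and *Car9* at 309. In HR1 the order was *Fam162a* at 310, *Mif* at 246 and *Ndrg1* at 202, and *Ndrg1* led in LM1 at 429.

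The spread within HR1 touched many members. HR1 replicate 1 was below both other HR1 tumours in 25 members (64.1%), against 41.3% of all genes, and above both in 9 (23.1%), against 40.0%. Without it, 22 members were higher and 4 lower in LM9 than in HR1, where 27.9% and 27.8% of all tested genes were called. In LM9 against LM1 27 members were higher and 1, *Stc2*, lower, against 22.9% and 22.5%. The calls gained in LM9 against HR1 were *Bnip3l* and *Stc2* higher and *Loxl2* and *Pygl* lower, and in LM9 against LM1 *Car12*, *Bhlhe40* and *Ppp1r3c* higher and *Stc2* lower. In LM1 against HR1 *Car9*, *Bhlhe40*, *Zfp395*, *Stc2* and *Ppp1r3c* were gained as higher and *P4ha1*, *P4ha2*, *Loxl2*, *Fam162a*, *Kdm4b*, *Ankrd37*, *Gys1* and *Pygl* as lower. Other HR1 tumours changed calls too: in LM1 against HR1 *Bnip3l* was lower without HR1 replicate 2 (-0.97 ± 0.27, edgeR adjusted p = 0.0277) or 3 (-0.91 ± 0.31, edgeR adjusted p = 0.0487), and *Bhlhe41* was higher, at the threshold, without HR1 replicate 3 (1.04 ± 0.35).

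Other genes of the pathway were counted on lists made by function. Of 10 HIF subunits and oxygen sensors, 9 were listed, of which 6 were higher and 0 lower in LM9 than in HR1, 2 higher and 1 lower in LM1 than in HR1 and 1 higher in LM9 than in LM1, beside the shares of all tested genes given above. These counts became 5 and 1, 3 and 2, and 4 and 0 without HR1 replicate 1. *Hif1a*, the alpha subunit, was higher than HR1 in both LM models, by 1.68 ± 0.18 in LM1 (edgeR adjusted p = 0.00039) and 1.33 ± 0.18 in LM9 (edgeR adjusted p = 0.000882). LM9 differed from LM1 by -0.35 ± 0.18, which was not called (edgeR adjusted p = 0.185, or 0.05 without HR1 replicate 1). *Egln3*, a prolyl hydroxylase that HIF induces, was higher by 1.54 ± 0.33 in LM1 and 1.81 ± 0.33 in LM9. *Hif1a* was at 309, 359 and 297 CPM in LM1 and 269, 243 and 244 CPM in LM9. Its mRNA thus lay lower in the LM9 tumours, opposite in direction to the 24 called members, though without a call. Of the 22 HIF-induced genes of glycolysis with *Vegfa* and *Ero1l*, 12 were higher in LM9 than in HR1, 4 in LM1 than in HR1 and 9 in LM9 than in LM1, with 0, 1 and 0 lower, where 20.4%, 16.7% and 11.5% of all tested genes were higher and 21.9%, 18.7% and 10.6% lower. Without HR1 replicate 1, 14, 4 and 16 were higher and 1, 8 and 0 lower, where 27.9%, 26.9% and 22.9% of all tested genes were higher and 27.8%, 26.0% and 22.5% lower.

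Some members also respond to other signals, and the target lists of those were counted in the same tumours. Of 10 genes of the ATF4 stress response, 6 were higher and 0 lower in LM9 than in HR1, 2 and 0 in LM1 than in HR1, and 2 and 1 in LM9 than in LM1. Of 7 listed glucocorticoid-induced genes the counts were 5 and 0, 1 and 1, and 3 and 0. Of 10 immediate early genes, which cell dissociation can induce, they were 7 and 1, 5 and 0, and 4 and 0. Of all tested genes, 20.4% were higher and 21.9% lower in the first of these comparisons, 16.7% and 18.7% in the second and 11.5% and 10.6% in the third. In the fit without HR1 replicate 1 the ATF4 counts were 7 and 0, 3 and 0, and 5 and 2, the glucocorticoid counts 5 and 1, 3 and 2, and 4 and 0, and the immediate early counts 8 and 1, 6 and 1, and 5 and 1. The shares of all tested genes also rose in that fit, to 27.9% higher and 27.8% lower, 26.9% and 26.0%, and 22.9% and 22.5% in the same order. The part of these signals in the members' levels was not tested. Of 10 leukocyte markers, 8 were lower in LM9 and 7 in LM1 than in HR1, with a summed level of 224 to 949 CPM in HR1, 191 to 207 CPM in LM1 and 198 to 241 CPM in LM9. Of 10 fibroblast markers, 9 were lower in LM9 and 5 in LM1, with summed levels of 23420 to 35250, 10400 to 13830 and 8976 to 10550 CPM. *Dcn* alone was at 17610 CPM in HR1 replicate 1, the tumour with the highest sum, against 432 and 329 CPM in the other HR1 tumours. *Col1a1*, the largest part of the LM sums, was not called between any models. Between LM9 and LM1, 1 leukocyte marker was higher and 2 were lower, and 1 fibroblast marker was lower. Without HR1 replicate 1, 5 fibroblast markers were lower and 1 higher in LM9 than in LM1, while 1 leukocyte marker was higher and 2 were lower. Without it, 7 leukocyte markers were lower in LM9 and 6 in LM1 than in HR1, and 9 and 5 fibroblast markers. Of 6 listed epithelial markers, 1 was lower in LM9 and 1 in LM1 than in HR1 and 3 were lower in LM9 than in LM1, and without HR1 replicate 1 the lower counts were 2, 2 and 3 and the higher ones 0, 3 and 1. Of 8 listed endothelial markers, *Cdh5* and *Kdr* were higher in both LM models and 3 were lower in LM9, or 5 in LM9 and 3 in LM1 without HR1 replicate 1, and *Pecam1* was at most 6.42 CPM. Adipocyte markers summed to at most 9.78 CPM, with 1 of 3 listed genes lower in LM9, and all 3 listed erythroid markers were lower in LM9 than in HR1, both also without HR1 replicate 1, where 1 marker of each list was lower in LM9 than in LM1 as well. The part of other cells in the members' values was not tested, and in such sorted bulk samples fewer cells of a type and less RNA per cell cannot be told apart. Exons of *Ankrd37*, *Higd1a*, *Bnip3*, *Fam162a* and *Bhlhe41* overlap genes of the opposite strand over 19.0% to 26.4% of their bases, and the strand setting of the counts is not given in the sources used here.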

How the data were processed

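For each of the 9 tumours the authors deposited whole-number read counts per gene, not normalized. According to the study's methods, reads were aligned to mm10 with STAR and 5′ ends on the union of exons of each gene were counted with qCount of QuasR. Versions, strand setting and low-count filter are not given in the sources used here, and all listed genes reached 7 or more counts in 3 tumours. Groups came from the sample titles. Entrez numbers were paired with symbols (14085 genes) and exon lengths by the GENCODE vM21 annotation of GRCm38.

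Total counts were 32393958 to 46681945 per tumour. Counts were fitted with edgeR 4.0.16 in R 4.3.3 (TMM factors of 0.928 to 1.05, filter by expression, robust quasi-likelihood F-test, 1 model over 3 groups) and p-values were adjusted by the Benjamini-Hochberg method over 14086 genes, with a threshold of 0.05. Tables used pandas 2.3.3 and figures matplotlib 3.10.9. At this depth 3 counts, the floor used, equal at most 0.0998 CPM, and intervals cover counting error only.

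The 39 members and the lists were chosen with earlier results of these data known. Members with an adjusted p under 0.05 and no overlap are given by tumour and the rest by range, except that *Loxl2* and *Stc2* are also given by tumour, chosen after their values were seen. The fit of LM9 against HR1 was tested on simulated counts of 13909 genes, where it recovered 21.2% of genes changed 2-fold and 67.7% of genes changed 4-fold, and 7.37% of its calls were unchanged genes. Only 99 genes were changed at each fold, while 5958 were called in the data. The adjusted threshold was therefore stricter in the simulation, and its shares do not give the recovery in the data. Alternatives were RLE factors, library size only, other low-count filters, DESeq2 1.42.0, limma-voom of limma 3.58.1 (the study's test), no robust step, a pooled LM group, fits without the model not compared, a 2-fold minimum, a replicate block and each tumour left out.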

Additional observations from a re-analysis of the deposited data

Results flagged for a closer look

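In 24 members the effect against HR1 differed between LM9 and LM1, tested by edgeR as the difference of LM9 from LM1 in the model over all 9 tumours. Of all tested genes, 11.5% were higher and 10.6% lower in LM9 than in LM1. Of the 24 calls, 13 were lost in at least 1 of the fits that left out 1 tumour. The log2 difference of the effects, LM9 minus LM1, was 0.76 for *P4ha1*, 0.70 for *P4ha2* and 1.26 for *Plod1* among the collagen enzymes. It was 1.57 for *Bnip3*, 1.47 for *Bnip3l*, 0.87 for *Higd1a*, 0.80 for *Fam162a* and 1.79 for *Ndrg1* among the genes of mitochondria and survival. Among genes of transcription and chromatin it was 1.74 for *Mxi1*, 1.79 for *Kdm3a*, 1.51 for *Kdm4b*, 1.14 for *Bhlhe41*, 0.61 for *Nfil3*, 1.28 for *Zfp395*, 1.23 for *Cited2* and 1.25 for *Ankrd37*. It was 2.45 for *Adm*, 1.05 for *Gbe1* and 1.71 for *Gys1*, and 0.66 for *Insig2*, 0.91 for *Errfi1*, 1.08 for *Wsb1*, 0.64 for *Narf* and 3.01 for *Tmem45a*. All 24 differences had the same sign. *Tmem45a* was scarce, at 3.33 ± 0.48 CPM in LM9 and 0.412 ± 0.183 CPM in LM1 (SD, n = 3). Groups of 3 tumours were not searched for outlying samples.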

How the results depend on the processing

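Of 1132 values of the 63 member calls under the alternatives, 986 kept direction and call, 146 kept direction but not the call, and 0 reversed. With RLE size factors, no filter, DESeq2 and no robust step all 63 were called, limma-voom lost 2 (*Plod1* and *Lox* in LM1 against HR1), library size only lost 6 and fits on the tumours compared only lost 10. Members lower in LM9 than in HR1 numbered 1 with a filter of 1 CPM in 3 tumours, and members lower in the LM models together numbered 3. *Rora* and *Pygl* do not pass that filter and were not tested in it, and all 61 member calls that were tested in it were kept. Fitted on the tumours compared only, 3008 genes differed in LM1 against HR1 and 7709 in LM9 against LM1, with 3 members lower in each and 6 and 28 higher. A 2-fold minimum left 3606, 3086, 1584 and 3335 genes in LM9 against HR1, LM1 against HR1, LM9 against LM1 and the LM models together, with 4 members lower in LM1 than in HR1. With LM1 and LM9 as a single group 2 members were lower and 13 higher, where 4149 genes were called in either direction. The median over the members in the LM models together, 0.32, was 0.51 with limma-voom. The causes of the other changes were not tested, except that a 2-fold minimum can only lower a count.

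Replicate numbers are shared between the models, but same-numbered tumours did not deviate together (correlation across genes from -0.11 to 0.30, above 0.1 in 2 of 9 pairs, and not every tumour correlated best with its own number), so they share only a number. With the number as a block, 10 of 63 member calls were lost. Members lower in LM1 than in HR1 numbered 5, those lower in the LM models together 3, and the median of the latter comparison was 0.50. The block gave 20 members higher in LM9 than in HR1 and 20 higher than in LM1. Of all genes it called 5078 in LM9 against HR1, 4204 in LM1 against HR1, 2295 in LM9 against LM1 and 5234 in the LM models together, in either direction.

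Leaving out each tumour gave 3768 to 7862 genes in LM9 against HR1, 3121 to 7453 in LM1 against HR1, 1150 to 6413 in LM9 against LM1 and 4928 to 7902 in the LM models together. The highest counts came without HR1 replicate 1, and the lowest without LM9 replicate 1 in LM9 against HR1 and without LM1 replicate 1 in the others. In these orders the higher members ranged from 18 to 22, 6 to 13, 11 to 27 and 15 to 20, and the lower ones from 2 to 4, 2 to 17, 0 to 1 and 3 to 9. Their median log2 fold change ranged from 0.84 to 1.22, -0.22 to 0.23, 0.74 to 0.97 and 0.27 to 0.57. With 3 tumours a model and a wide spread in HR1, small differences of scarce members may have been missed. *Rora* and *Ppp1r3c* were scarce but were called in LM9 against HR1 in all 9 fits that left out 1 tumour. The calls of *Tmem45a* were lost in some of these fits, and *Pygl* was not called between models over all 9 tumours.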
